A study of Mus musculus with 2 samples.

Results

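The genes described here are 10 members of the matrix metalloproteinase system, of 32285 genes in the deposited tables. They were taken by name: the matrix metalloproteinases *Mmp8*, *Mmp9*, *Mmp12*, *Mmp13*, *Mmp14* and *Mmp19*, the tissue inhibitors of metalloproteinases *Timp1* and *Timp2*, and the membrane proteases *Adam8* and *Adam17*. All 10 were in both tables. The mice had a surgical myocardial infarction (MI) on postnatal day 2, and the hearts were collected on day 7 after MI, when the pups were 9 days old. Live (7-AAD-negative) CD45+ leukocytes were sorted from the ventricles for scRNA-seq, which gave 1 library from 5 pooled WT hearts and 1 library from 5 pooled hearts of *Lyve1* KO mice, which lack the hyaluronan receptor LYVE-1 in all cells. The strain of these WT mice is not given in the sources used here, and every heart of both libraries had MI, so no uninjured heart was compared. With 1 library per genotype there was no replicate and no test was possible: intervals below are exact 95% intervals that cover counting error only, and differences between the libraries may be differences between genotypes, pools or preparations.

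Matrix metalloproteinases are zinc-dependent enzymes that cut collagens, elastin, basement membrane and many secreted proteins. Most are secreted as inactive precursors, MMP14 stays in the cell membrane, and TIMP proteins block the active site of the activated enzymes. In the infarcted heart, leukocytes are a known source of these enzymes, which take part in the clearing of dead tissue and in the remodeling of the scar. ADAM8 and ADAM17 are membrane-anchored proteases of a related family, and ADAM17 sheds surface proteins such as TNF from leukocytes.

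*Mmp8*, *Mmp12* and *Mmp13* lie close together on chromosome 9, in a stretch of 427 kb that holds 9 matrix metalloproteinase genes of the tables (GRCm38, GENCODE M21: from 7272514 to 7699585). The other members are spread over the genome, with *Mmp9* on chromosome 2 (164940780 to 164955850), *Mmp14* on chromosome 14 (54431612 to 54445364), *Mmp19* on chromosome 10 (128790910 to 128800824), *Timp1* on chromosome X (20870166 to 20874735), *Timp2* on chromosome 11 (118301069 to 118355740), *Adam8* on chromosome 7 (139978932 to 139992562) and *Adam17* on chromosome 12 (21323509 to 21373632). In these data *Mmp8* stood highest in neutrophil-like cells, and *Mmp12* and *Mmp13* in macrophage-like cells, as described below. For this reason the 250 bases upstream of the RefSeq start sites of these 3 genes are shown, all on the plus strand of GRCm38. Capitals mark matches to 3 short motifs searched on both strands: TGANTCA (the AP-1 site), TATAAA and GAGGAAGT (a form of the PU.1 site, here as its reverse complement ACTTCCTC).
*Mmp8*, chr9:7558179-7558428: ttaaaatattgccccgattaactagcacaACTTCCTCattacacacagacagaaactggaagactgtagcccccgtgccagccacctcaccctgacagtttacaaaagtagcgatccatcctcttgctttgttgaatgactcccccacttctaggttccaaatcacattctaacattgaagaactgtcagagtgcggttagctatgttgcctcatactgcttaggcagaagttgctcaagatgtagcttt
*Mmp12*, chr9:7344147-7344396: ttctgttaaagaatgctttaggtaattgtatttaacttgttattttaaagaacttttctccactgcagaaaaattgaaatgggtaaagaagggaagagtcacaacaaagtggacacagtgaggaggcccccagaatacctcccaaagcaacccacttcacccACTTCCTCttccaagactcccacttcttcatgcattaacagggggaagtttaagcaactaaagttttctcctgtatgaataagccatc
*Mmp12*, second start, chr9:7347124-7347373: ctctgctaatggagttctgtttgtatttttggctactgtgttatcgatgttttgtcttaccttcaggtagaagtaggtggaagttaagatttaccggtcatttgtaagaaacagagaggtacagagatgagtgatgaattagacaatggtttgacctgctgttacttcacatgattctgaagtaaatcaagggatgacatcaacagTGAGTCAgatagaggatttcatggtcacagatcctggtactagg
*Mmp13*, chr9:7272264-7272513: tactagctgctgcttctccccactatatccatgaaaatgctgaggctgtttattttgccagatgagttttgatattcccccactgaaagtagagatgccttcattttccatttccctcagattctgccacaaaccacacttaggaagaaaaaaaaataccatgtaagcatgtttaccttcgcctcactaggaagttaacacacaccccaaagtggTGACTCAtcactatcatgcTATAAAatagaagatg

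*Mmp13* held an AP-1 match at -35 and a TATAAA match at -16 from the start site. *Mmp8* held the PU.1 form at -221, and *Mmp12* held it at -88 from its first start and an AP-1 match at -44 from its second start. Of 32851 mouse windows of the same 250 bases, 6.75% held the AP-1 letters, 12.4% held TATAAA and 2.44% held the PU.1 form. RefSeq windows matched 8 of the 10 genes, and the other matched members (*Adam8*, *Adam17*, *Mmp14*, *Timp1*, *Timp2*) had none of the 3 motifs in these bases. A match is a match of letters only, and binding was not measured. The end of *Mmp12* overlaps *Mmp1b* on the other strand, which had at most 2 UMIs in any myeloid class of either library.

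The classes were rebuilt from the counts by clustering, with the 10 genes kept out of the clustering, and were named from marker lists. CCR2- macrophage-like cells numbered 1231 in WT and 550 in KO, and 13 of the 17 markers of their list were in at least 25% of cells in both libraries. CCR2+ macrophage-like cells (175 in WT and 166 in KO) were 1 cluster led by *Spp1*, *Gpnmb* and *Vegfa*, with 10 of 10 markers. Monocyte-like cells (486 and 540) had 8 of 9 classical and 7 of 8 non-classical monocyte markers. This class joins a classical cluster (246 cells in each library) with non-classical clusters. Neutrophil-like cells (351 and 335) had 7 of 13 neutrophil markers (without *Mmp8* and *Mmp9*), of which 1 was at 0. *Lyve1*, the targeted gene, was at 247 CPM (UMIs of the gene per 1000000 UMIs of the same cells) in WT and 13.1 in KO over all kept cells. Median depth differed between classes, from 7656 and 7977 UMIs per cell in neutrophil-like cells (WT and KO) to 23553 and 27601 in CCR2+ macrophage-like cells. Shares of cells with a UMI were therefore taken after each cell was thinned to 4900 UMIs, which left out 8 to 90 cells per class and library, and are set beside B and T cell-like cells (median depth 10090 and 12774 UMIs). Only 3 cell barcodes were shared by the kept cells of the 2 libraries.

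*Mmp8* encodes the neutrophil collagenase, which is stored in granules. It was at 809 CPM (interval 776 to 842) in WT and 956 (922 to 992) in KO neutrophil-like cells. Next came monocyte-like cells, at 73.2 CPM in WT and 55.4 in KO, then CCR2+ macrophage-like cells at 4.02 and 7.17 CPM, and CCR2- macrophage-like cells with 4 UMIs in WT and 1 in KO. The intervals of neighbors in this order did not overlap in either library. The neutrophil-like clusters differed widely. In the cluster led by *Ngp*, *Camp* and *Ltf*, genes of granules made during neutrophil maturation in the bone marrow, *Mmp8* was at 2573 CPM in the 22 WT cells and 2203 in the 29 KO cells. It was at 557 and 665 CPM in the largest cluster, led by *Stfa1*, and at 31.0 and 56.0 CPM in the cluster led by *Acod1* and *Il1rn*. In monocyte-like cells *Mmp8* belonged to the classical cluster led by *S100a8* and *Ly6c2* (108 CPM in WT and 91.98 in KO), which held 610 of the 615 UMIs in WT and 572 of 577 in KO.

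*Mmp9* encodes gelatinase B, which cuts denatured collagen and type IV collagen. Neutrophil-like cells held 85.6% of its UMIs in WT and 90.8% in KO, at 1463 CPM (1419 to 1508) and 1598 CPM (1554 to 1644). At the thinned depth *Mmp9* was found in 93.1% of WT and 96.6% of KO neutrophil-like cells (91.2% and 94.3% of all such cells, not thinned), while in B and T cell-like cells, which set the background, it was found in 0 of 577 WT cells (allowing up to 0.52%) and 1 of 830 KO cells. Unlike *Mmp8*, *Mmp9* was high in all 3 neutrophil-like clusters, from 752 to 1838 CPM in WT and from 1177 to 1654 CPM in KO. Almost all neutrophil-like cells with *Mmp8* also had *Mmp9* at the thinned depth (164 of 166 in WT and 202 of 202 in KO), and most of those without *Mmp8* had it too (106 of 124 and 86 of 96).

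A smaller site of *Mmp9* was the CCR2- macrophage-like class, at 16.7 CPM in WT and 28.1 in KO; in CCR2+ cells it was at 26.5 and 2.05 CPM, and monocyte-like cells were last with 14 and 2 UMIs. The first place of CCR2+ over CCR2- cells in WT rested on 2 cells: without the highest cell CCR2+ cells were at 12.5 CPM and CCR2- cells at 15.4, and without the 2 highest at 3.07 and 14.7, the same order as in KO. In the CCR2- cluster led by *Ccl8*, *Cd209f* and *Folr2*, the last a marker of resident macrophages, *Mmp9* stood at 58.3 CPM with UMIs in 57 of 187 WT cells, and at 84.9 CPM with UMIs in 48 of 128 KO cells. The neutrophil gene *S100a8* was at 1.98 and 2.03 CPM in the same cells, against 41687 and 54860 CPM in neutrophil-like cells, and *Mmp8* had 0 UMIs there in both libraries. The cluster led by *Saa3*, *Prg4* and *Marco*, named cavity-like from its markers, had 50.1 CPM in WT and 23.0 in KO. The largest CCR2- cluster, led by *Olfml3*, had 2 *Mmp9* UMIs in WT and 1 in KO.

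**Figure D1:**
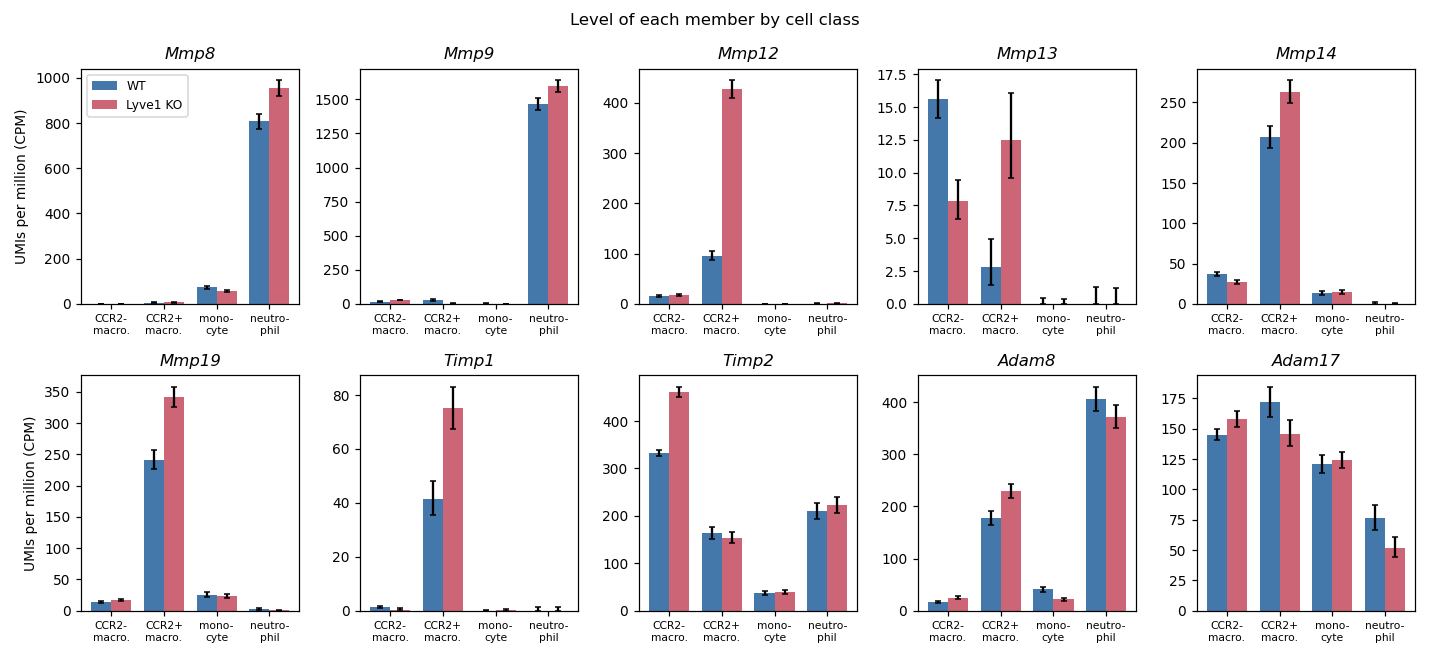
Level of each of the 10 genes in CPM (bars, each axis starting at 0) in the 4 myeloid classes of the WT and *Lyve1* KO library, with exact 95% Poisson intervals that cover counting error only. *Mmp8* and *Mmp9* stand highest in neutrophil-like cells, *Mmp12*, *Mmp14*, *Mmp19* and *Timp1* in CCR2+ macrophage-like cells of both libraries, and *Timp2* in CCR2- macrophage-like cells.

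*Mmp12* encodes the macrophage elastase. In CCR2+ macrophage-like cells it was at 95.7 CPM (86.6 to 105) in WT and 427 (409 to 446) in KO, against 15.7 and 18.1 CPM in CCR2- macrophage-like cells. In monocyte-like cells there were 0 UMIs in WT and 1 in KO, and in neutrophil-like cells 0 and 2, so these classes were not told apart at this depth. The gene was carried by few cells: 19 of 175 CCR2+ cells in WT and 27 of 166 in KO had any UMI. Of these, 1 WT cell held 218 of 405 UMIs and 1 KO cell held 1031 of 2083, which was 1.77% of all UMIs of that KO cell. Another site was an unnamed cluster led by the MHC class II genes *H2-Eb1*, *H2-Ab1* and *H2-Aa*, at 244 CPM in 56 WT cells and 388 in 60 KO cells. Within the CCR2- class the cluster led by *Cd207* had 78.7 and 95.9 CPM.

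*Mmp13* encodes a collagenase of fibrillar collagens. It was low, with 475 UMIs in all kept WT cells and 183 in KO cells, and 95.2% of the UMIs in WT and 62.8% in KO were in CCR2- macrophage-like cells, at 15.6 CPM in WT and 7.86 in KO. Monocyte-like and neutrophil-like cells had 0 UMIs in both libraries. The CCR2- cluster led by *Cd207*, *Vsig4* and *Clec4f* had 38.1 CPM in 75 WT cells and 55.5 in 17 KO cells. CCR2+ cells had 2.84 CPM in WT and 12.5 in KO, but 52 of the 61 KO UMIs were in 1 cell, so their first place in the KO order rests on that cell. The same KO cell, with 58127 UMIs in all, also held the most *Mmp12* (1031 UMIs) and the most *Mmp19* (409 UMIs) of its class and had 1 UMI of *S100a8* and *S100a9*.

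*Mmp14*, the membrane-type enzyme that activates other metalloproteinases, was at 207 CPM (194 to 221) in WT and 263 (249 to 278) in KO CCR2+ macrophage-like cells. The order was the same in both libraries, with CCR2- macrophage-like cells at 36.7 and 26.8 CPM, monocyte-like cells at 13.1 and 14.4 CPM, and neutrophil-like cells with 1 UMI in WT and 0 in KO, and no neighbors overlapped. At the thinned depth, 54.1% of WT and 51.3% of KO CCR2+ cells had a UMI (65.1% and 72.3% not thinned), against 2.25% and 1.93% of B and T cell-like cells. Within the CCR2- class the level was highest in the cluster led by *Cd207*, at 121 CPM in WT and 182 in KO.

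*Mmp19*, an enzyme of basement membrane proteins, was at 241 CPM (227 to 257) in WT and 342 (325 to 358) in KO CCR2+ macrophage-like cells. Monocyte-like cells followed at 25.5 and 23.1 CPM, then CCR2- macrophage-like cells at 13.7 and 16.9 CPM, and neutrophil-like cells with 7 UMIs in WT and 1 in KO. Within monocyte-like cells, the classical cluster had 35.7 CPM in WT and 33.8 in KO, and the non-classical cluster led by *Ace* had 3.37 and 3.90 CPM. UMIs of *Mmp19* were in 106 of 175 WT and 109 of 166 KO CCR2+ cells, a far wider spread over cells than for *Mmp12*.

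**Figure D2:**
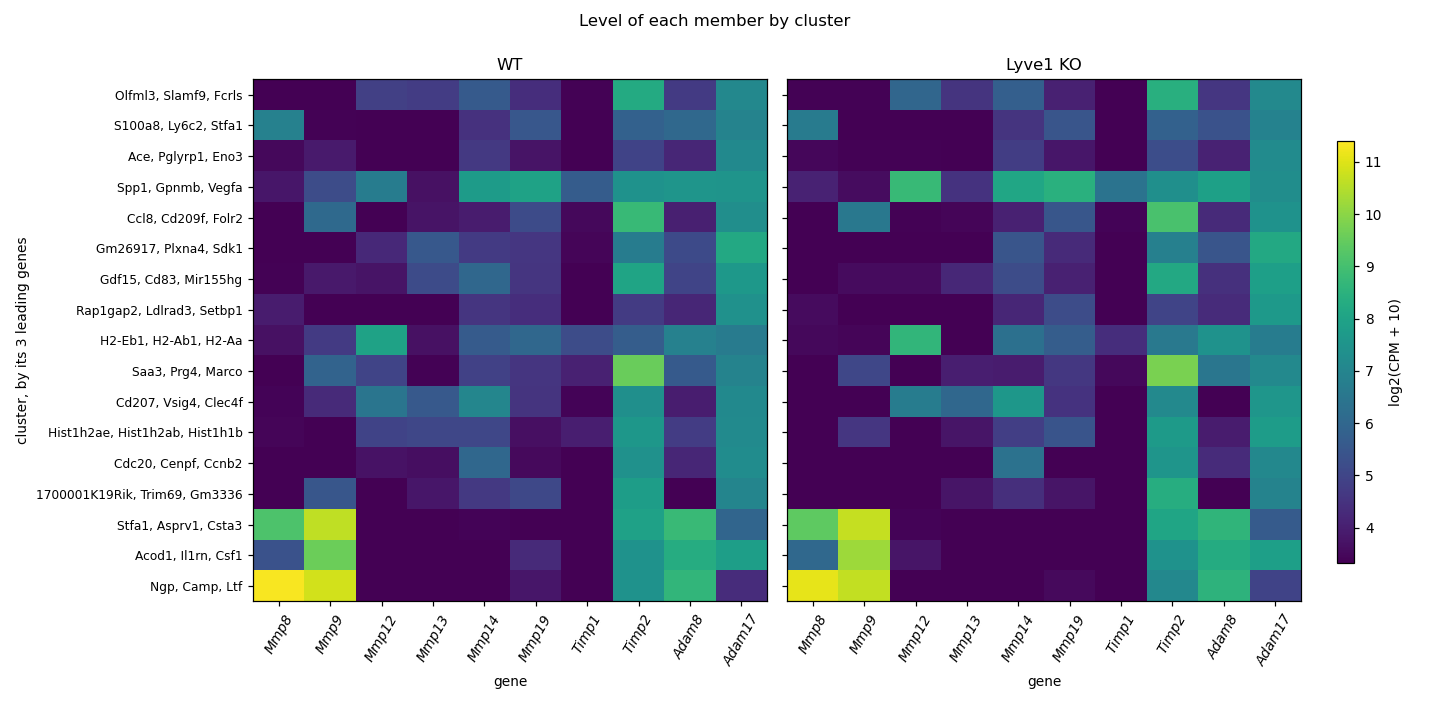
Level of each gene, as log2(CPM + 10), by cluster (rows, named by 3 leading genes) of the WT (left) and *Lyve1* KO library (right). The rows are macrophage, monocyte and neutrophil clusters and the unnamed cluster led by MHC class II genes. *Mmp8* is brightest in the cluster led by *Ngp* (2573 and 2203 CPM), *Mmp12* in those led by *Spp1* and by MHC class II genes, and *Timp2* in those led by *Saa3* and by *Ccl8*.

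Of the inhibitors, *Timp1* had 60.1% of its UMIs in WT and 87.6% in KO in CCR2+ macrophage-like cells, at 41.3 CPM (35.4 to 47.9) and 75.0 CPM (67.5 to 83.1). The unnamed cluster led by MHC class II genes had 26.8 CPM in WT and 10.9 in KO. CCR2- macrophage-like cells had 1.31 and 0.41 CPM, and monocyte-like and neutrophil-like cells together had 1 UMI in the 2 libraries. UMIs were in 34 of 175 WT and 44 of 166 KO CCR2+ cells, with a highest count of 30 and 49 in a single cell. After thinning, *Timp1* was in 11 of the 86 WT and 18 of the 81 KO CCR2+ cells with *Mmp14*, against 8 of 73 and 8 of 77 without it. The binomial intervals of these shares overlapped in both libraries.

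*Timp2*, which also helps MMP14 to activate pro-MMP2, was at 332 CPM (326 to 339) in WT and 461 (450 to 473) in KO CCR2- macrophage-like cells. Neutrophil-like cells came second, at 210 and 222 CPM, then CCR2+ macrophage-like cells at 164 and 154 CPM, and monocyte-like cells at 37.9 and 39.0 CPM, and no neighbors in this order overlapped. Each inhibitor was thus highest in a different macrophage class, but *Timp2* was above *Timp1* in both of these classes in both libraries. At the thinned depth 66.3% of WT and 75.4% of KO CCR2- cells had a UMI of *Timp2* (84.6% and 85.8% not thinned), against 5.72% and 5.78% of B and T cell-like cells. The cavity-like cluster led by *Saa3* stood at 749 CPM in WT and 872 in KO, the cluster led by *Ccl8* and *Folr2* at 429 and 526, and the cluster led by *Olfml3* at 297 and 329.

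*Adam8*, a protease of leukocyte migration, was at 406 CPM (382 to 430) in WT and 372 (350 to 394) in KO neutrophil-like cells and at 177 and 229 CPM in CCR2+ macrophage-like cells. Monocyte-like cells had 40.7 and 21.7 CPM and CCR2- macrophage-like cells 16.8 and 25.3 CPM, and in KO the last 2 overlapped. Outside the 4 classes, dendritic cell-like cells had 256 CPM in 62 WT cells and 250.4 in 38 KO cells. Mast cell or basophil-like cells, few in number, had 305 CPM in 29 WT cells and 232 in 15 KO cells.

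*Adam17*, like *Timp2* and *Adam8*, had at least 100 UMIs in all 4 classes of both libraries. In WT it was at 172 CPM (160 to 185) in CCR2+ and 145 (141 to 150) in CCR2- macrophage-like cells, then at 121 in monocyte-like and 76.2 in neutrophil-like cells. In KO the 2 macrophage classes overlapped, at 146 and 158 CPM, followed by 124 and 51.9 CPM. Among macrophage clusters it was highest in the shallow cluster led by *Gm26917* and *Plxna4*, at 281 and 284 CPM. It was also present in B cell-like cells, at 53.8 and 54.8 CPM. In neutrophil-like cells its UMIs followed another cluster than those of *Mmp8*: the cluster led by *Acod1* and *Il1rn* had 223 CPM in WT and 228 in KO, and the largest cluster had 52.5 and 39.4 CPM.

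**Figure D3:**
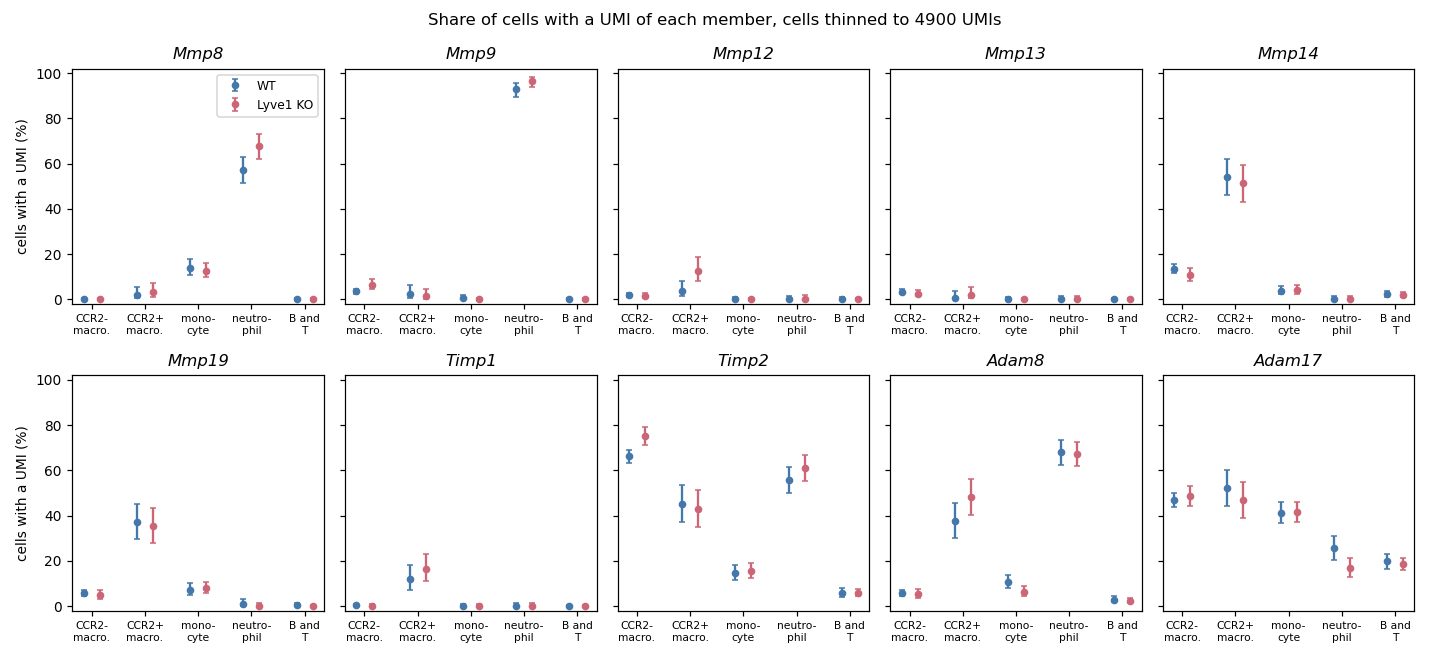
Share of cells with at least 1 UMI of each gene after each cell was thinned to 4900 UMIs, by class and library, beside B and T cell-like cells. Bars are exact (Clopper-Pearson) 95% binomial intervals that cover counting error only. B and T cell-like cells are no plain background for *Timp2*, *Adam8* and *Adam17*. In WT these were at 26.6, 9.80 and 32.2 CPM in T cell-like and 4.74, 1.14 and 53.8 CPM in B cell-like cells. *Mmp9* was in 93.1% of WT and 96.6% of KO neutrophil-like cells, while *Mmp12* stayed at 12.7% or less in every class.

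The design asks how the KO library differs from the WT library. Ratios are log2 ratios of CPM + 10, KO over WT, for the 30 of 40 gene and class pairs whose UMIs in the libraries summed to at least 20. The ratio was at least 1 in size, that is 2-fold, for 2 of the 30 pairs, both in CCR2+ macrophage-like cells: *Mmp12* was higher in KO and *Mmp9* was lower in KO. Both pairs were among the 27 with at least 100 UMIs. Of all genes with at least 100 UMIs in a class, 0.598% passed 2-fold in CCR2+ macrophage-like cells, where 2 of 8 such members did, and 0.469% in CCR2- macrophage-like, 0.292% in monocyte-like and 0.946% in neutrophil-like cells, where 0 of 8, 0 of 6 and 0 of 5 such members did. The median size of the log2 ratio over the members of the 30 pairs was 0.42 in CCR2+ and 0.34 in CCR2- macrophage-like cells, against 0.13 and 0.10 over all genes with at least 100 UMIs. It was 0.09 in monocyte-like and 0.13 in neutrophil-like cells, against 0.09 and 0.17 over those genes. In CCR2+ and CCR2- macrophage-like cells 8 of 10 and 8 of 9 member pairs had at least 100 UMIs, so these medians are not fully like for like. With the KO clusters weighted as in WT, the CCR2- log2 ratios of *Mmp9*, *Mmp13*, *Mmp14*, *Mmp19*, *Timp2* and *Adam8* were smaller in size. Those of *Mmp12*, *Timp1* and *Adam17* were larger, and the values over all genes were not weighted.

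*Mmp12* in CCR2+ cells was 4.46-fold higher in KO (4.01 to 4.98, log2 ratio 2.05). Without the cell with the most UMIs in each library it was at 44.2 CPM in WT and 216 in KO, and without the 2 highest cells at 29.1 and 111 CPM, 3.83-fold higher. Cells with at least 10 UMIs numbered 6 in WT and 14 in KO. At the thinned depth, 3.77% of WT cells (6 of 159) and 12.7% of KO cells (20 of 158) had a UMI, with upper and lower bounds of 8.03% and 7.91% that overlap slightly. Cells taken as male by Y-linked genes had 45.2 CPM in WT and 311 in KO, and cells taken as female by *Xist* had 159 and 697 CPM, so the level was higher in KO in both. Cells with UMIs of neither or of both were left out of this and the later splits by sex. Of the female UMIs, 218 of 301 in WT and 1031 of 1170 in KO were in 1 cell. Of the male UMIs, 1 cell held 28.4% in WT and another held 56.6% in KO. The KO values of both sexes thus rest largely on 1 cell each.

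*Mmp9* in CCR2+ cells was at 26.5 CPM in WT and 2.05 in KO, a ratio of 0.077 (0.036 to 0.15, log2 ratio -1.60). The WT value rested on 2 of 175 cells, with 59 and 40 of the 112 UMIs, both without a UMI of *S100a8*, *S100a9* or *Mmp8*. UMIs of *Mmp9* were in 7 WT and 7 KO cells. Without the highest cell of each library the log2 ratio was -0.98, below 2-fold, and without the 2 highest cells it was -0.25 (13 and 5 UMIs). In cells taken as female there were 4 UMIs in WT and 7 in KO, a ratio of 1.98 (0.50 to 9.20), so no direction can be read there.

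**Figure D4:**
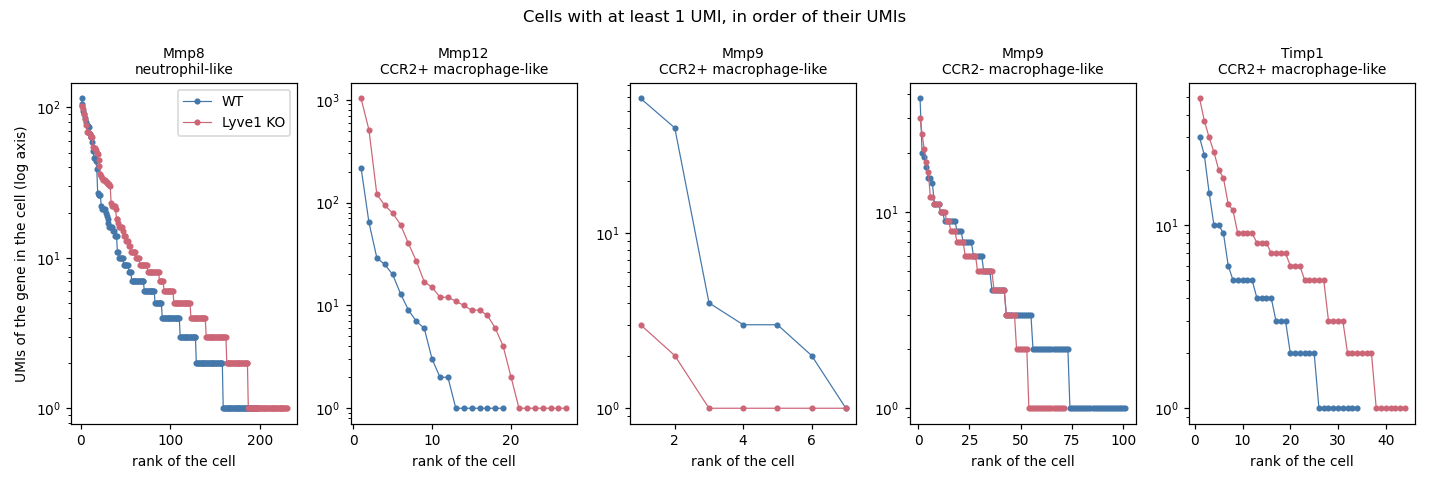
UMIs of a gene in each cell that had any (log axis), with cells in order of their UMIs, in 5 gene and class pairs of the WT and *Lyve1* KO library. In CCR2+ cells, 2 WT cells (59 and 40 UMIs) stand apart for *Mmp9*, and 1 KO cell has 1031 UMIs of *Mmp12*, while *Mmp8* and *Timp1* fall off over many cells.

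The other CCR2+ log2 ratios, with 10 CPM added, were below 1 in size. *Timp1* was 1.81-fold higher in KO (1.51 to 2.19) and 1.90-fold higher without the highest cells, but it was 2.91-fold higher in male cells and at a ratio of 0.87 in female cells. *Mmp19* was 1.41-fold higher (1.31 to 1.53) and 1.27-fold higher without the highest cells, of which the KO cell held 409 of 1666 UMIs. In male cells *Mmp19* was at a ratio of 0.96, with an interval that includes 1. In female cells it was at 2.41, with 409 of the 863 KO UMIs in that 1 cell. *Mmp14* was 1.27-fold higher (1.17 to 1.39) and *Adam8* 1.29-fold higher (1.18 to 1.42), each higher in KO in both male and female cells, although the female interval of *Adam8* includes 1. *Mmp8*, with 17 and 35 UMIs, had a ratio of 1.79 (0.97 to 3.40), and *Mmp13*, with 12 and 61, one of 4.41 (2.35 to 9.00) that rests on the 1 KO cell described above: without the highest cells it was at 1.65 CPM in WT and 1.84 in KO. *Timp2* had a ratio of 0.94 (0.85 to 1.05), an interval that includes 1, and *Adam17* a ratio of 0.85 (0.77 to 0.94).

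In CCR2- macrophage-like cells the makeup of the class differed between the libraries. The cluster led by *Ccl8* and *Folr2* was 15.2% of these cells in WT and 23.3% in KO, the cavity-like cluster 4.87% and 9.09%, and the cluster led by *Olfml3* 484 of 1231 and 165 of 550 cells. *Timp2* was 1.39-fold higher in KO (1.35 to 1.43), and with the KO clusters weighted as in WT it was 1.14-fold higher. *Mmp9*, at 16.7 CPM in WT and 28.1 in KO, was 1.68-fold higher (1.47 to 1.92) and 1.08-fold higher with that weighting. For *Mmp14* the ratio went from 0.73 (0.65 to 0.82) to 1.04, and for *Mmp13* from 0.50 (0.41 to 0.62) to 0.67. *Mmp12* had a ratio of 1.15 (0.99 to 1.34), with 209 of its 265 KO UMIs in 1 cell, a ratio of 0.29 without the highest cells and one of 1.70 with that weighting. *Mmp19* was 1.23-fold and *Adam8* 1.51-fold higher, and weighted as in WT they were at 0.99 and 1.14. *Adam17* stayed close in both forms, 1.09-fold and 1.10-fold higher. *Timp1* had 38 UMIs in WT and 6 in KO, a ratio of 0.31 (0.11 to 0.75).

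Male and female cells of the CCR2- class did not always go the same way. Cells taken as male and as female numbered 808 and 321 in WT, and 274 and 220 in KO. The mix of sexes thus differed between the libraries, and its part in the class ratios was not tested. *Adam8* was 2.60-fold higher in male cells and at a ratio of 0.56 in female cells, and *Mmp12* had ratios of 1.55 and 0.57. The *Mmp12* ratios rest on few cells: 209 of the 217 male KO UMIs and 76 of the 127 female WT UMIs were in 1 cell each. *Mmp13* had a ratio of 0.39 in male and 1.12 in female cells, and the latter interval includes 1. *Timp2* (1.49 and 1.28) and *Mmp9* (1.36 and 3.62) were higher in KO in both, and *Mmp14* had ratios of 0.58 and 0.97.

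In monocyte-like cells *Adam8* had a ratio of 0.53 (0.45 to 0.63) and *Mmp8* a ratio of 0.76 (0.67 to 0.85). The classical cluster was 50.6% of these cells in WT and 45.6% in KO, and weighted as in WT the ratios were 0.58 for *Adam8* and 0.85 for *Mmp8*. The 13 genes of the neutrophil list, none at 0, summed to 1264 CPM in WT and 683 in KO in these cells, and most of the difference was *S100a8* (749 and 386 CPM) and *S100a9* (232 and 44.9 CPM); the part of this in the ratios of *Adam8* and *Mmp8* was not tested. *Mmp14*, *Mmp19*, *Timp2* and *Adam17* had ratios between 0.90 and 1.10, each with an interval that includes 1, but *Mmp14* was at 0.54 in male and 2.50 in female cells. In neutrophil-like cells *Mmp8* was 1.18-fold higher (1.12 to 1.25), and the cluster led by *Ngp* was 6.27% of the cells in WT and 8.66% in KO. With the clusters weighted as in WT, the *Mmp8* ratio was 1.01, and it was 1.31 in male and 0.88 in the few female cells (26 and 35). Of the neutrophil-like cells, 175 of 351 in WT and 188 of 335 in KO had no Y-linked or *Xist* UMI and entered neither of these 2 ratios. *Adam17* had a ratio of 0.68 (0.55 to 0.84), with the cluster led by *Acod1* at 22.5% of cells in WT and 11.9% in KO, and a ratio of 0.92 when weighted as in WT. *Mmp9* was 1.09-fold higher (1.05 to 1.14), *Timp2* 1.06-fold (0.95 to 1.19) and *Adam8* at 0.916 (0.843 to 0.996).

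**Figure D5:**
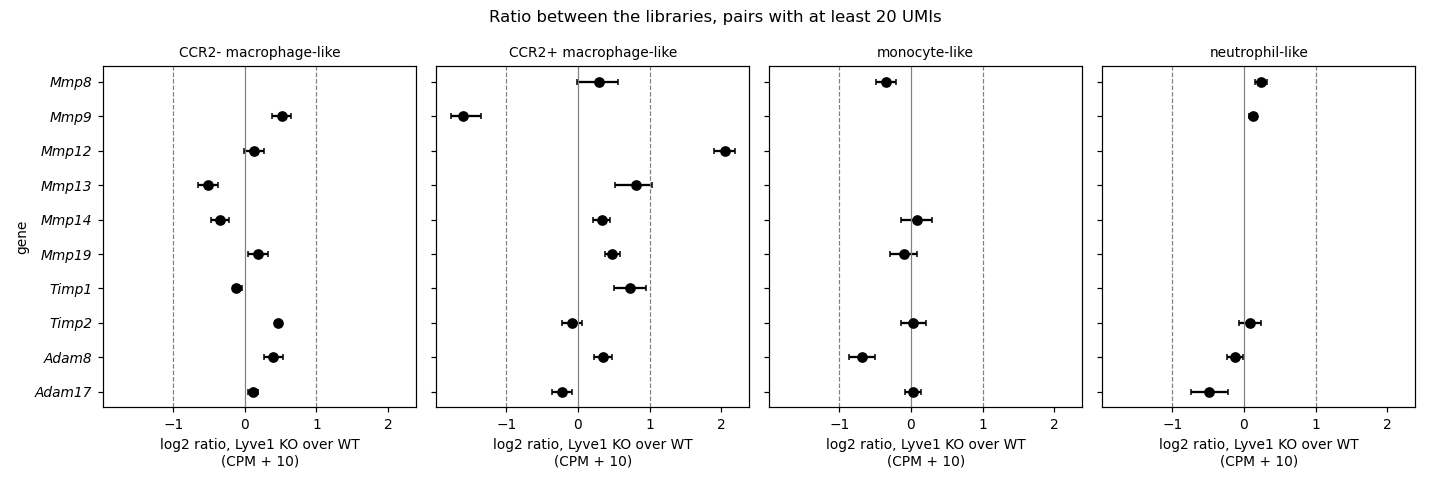
Log2 ratio of CPM + 10, *Lyve1* KO over WT, for the 30 gene and class pairs whose UMIs summed to at least 20; bars are exact 95% conditional binomial intervals that cover counting error only, and dashed lines mark 2-fold. The points past 2-fold are *Mmp12* (2.05) and *Mmp9* (-1.60), both in CCR2+ macrophage-like cells.

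Other genes of the system were taken from lists. Of 16 other matrix metalloproteinases in the tables, only *Mmp25*, a membrane-anchored enzyme of neutrophils, reached 100 UMIs in neutrophil-like cells (66.0 CPM in WT and 72.3 in KO) and only *Mmp2* did in CCR2- macrophage-like cells (4.14 and 4.92 CPM), and none did in the other 2 classes. The highest in WT were *Mmp27* in CCR2+ macrophage-like cells (1.42 and 0.20 CPM) and *Mmp28* in monocyte-like cells (1.55 and 1.15 CPM). None of the 3 other inhibitors reached 100 UMIs in any class; *Reck* was the highest in 3 classes, at up to 9.53 CPM in WT and 16.8 in KO neutrophil-like cells, and *Timp3* in the CCR2+ class (0.47 and 0.82 CPM). Of 8 other ADAM proteases, 3 to 5 reached it in each class and 0 passed 2-fold. In WT the highest were *Adam15* in CCR2- macrophage-like cells (161 and 179 CPM), *Adam10*, which sheds surface receptors as ADAM17 does, in CCR2+ macrophage-like cells (147 and 162 CPM) and in monocyte-like cells (136 and 146 CPM), and *Adam19* in neutrophil-like cells (76.6 and 99.1 CPM).

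Among 12 partners and activators, 8 to 10 reached 100 UMIs in each class, and 3 gene and class pairs passed 2-fold, of which 2 are given here. *Serpinb2*, an inhibitor of the plasminogen activator urokinase, was at 51.4 CPM in CCR2- cells of WT, with UMIs in 28 cells, and at 395 CPM in those of KO, with UMIs in 41. *Lcn2*, whose protein binds MMP9, was at 59.4 and 6.72 CPM in monocyte-like cells, with 172 of the 499 WT UMIs in 1 cell. *Cd44*, which can hold MMP9 at the cell surface and binds hyaluronan, was the highest of this list in WT in CCR2- macrophage-like (451 and 599 CPM), CCR2+ macrophage-like (1065 and 1223 CPM) and monocyte-like cells (1104 and 1073 CPM), and *Lcn2* was in neutrophil-like cells (2806 and 3235 CPM). Among 10 substrates of ADAM17 shedding, 7 to 9 reached 100 UMIs and 1 pair passed 2-fold: *Icam1*, an adhesion receptor, at 183 and 77.3 CPM in neutrophil-like cells. Of all genes with at least 100 UMIs, 0.292% to 0.946% passed 2-fold in the 4 classes. The listed genes were not weighted by the WT clusters, and the part of cluster makeup in their ratios was not tested. *Csf1r*, the receptor for the macrophage growth factor, was the highest of these in CCR2- macrophage-like (1480 and 1432 CPM), CCR2+ macrophage-like (1007 and 740 CPM) and monocyte-like cells (826 and 907 CPM).

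The genes most like each member were found by Pearson's r of log2(CPM + 10) over 29 points, from 16 clusters in the 2 libraries where they had at least 20 cells. They comprise macrophage, monocyte and neutrophil clusters and the unnamed cluster led by MHC class II genes. That unnamed cluster had *Mmp12* at 244 CPM in WT and 388 in KO, and its part in the r values was not tested. Points of 1 library share its depth and preparation, and the values are descriptions only. *Mmp8* was closest to *Stfa3* (r = 0.97), *Lcn2* (0.95) and *Rflnb* (0.95), and *Mmp9* to *Chil1*, *Mrgpra2b* and *Cstdc6* (0.93 to 0.94). *Mmp12* was closest to *Kcnn4*, *H2-Ab1* and *H2-Aa* (0.85), *Mmp13* to *AU022793*, *Pvrig* and *Xylb* (0.82 to 0.86), *Mmp14* to *Rgs1*, *B3gnt7* and *Tlr1* (0.84 to 0.85), and *Mmp19* to *Ccl5*, *Fcrlb* and *Timp1* (0.83 to 0.86). *Timp1* in turn was closest to *Sdc1*, *Il7r* and *Fcrlb* (0.91), while *Timp2* was closest to *Ctsd*, *Ptgs1* and *Rhoc* (0.81 to 0.83). The closest genes to *Adam8* were *Cd24a*, *Treml2* and *AA467197* (0.87 to 0.90), and those to *Adam17* were *Itga5*, *Patl1* and *Tbk1* (0.89 to 0.90).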

How the data were processed

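The single-cell libraries used the 5′ chemistry of 10x Genomics. The authors deposited raw counts (UMIs per gene and cell barcode), made with Cell Ranger on mm10/GRCm38; the version is 8.0.1 in the submitters' processing notes, and the paper's reporting summary names another. The counts were not normalized or filtered beyond the calling of cells: 67968938 UMIs in 5713 WT barcodes and 61555917 in 5285 KO barcodes. The authors' assignment of cells to hearts needs the reads and was not repeated.

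Cells with at least 500 genes, 250 UMIs and at most 30% mitochondrial UMIs were kept. The libraries differed here: 10.5% of WT and 16.5% of KO barcodes were over the mitochondrial limit, and 4285 WT and 3464 KO barcodes were within all limits. Doublet scores came from scrublet (scanpy 1.11.5), whose own threshold marked 1 WT and 4 KO barcodes and so had not worked. The highest scores, at 0.4% per 1000 barcodes, were therefore left out, which left 4187 WT and 3391 KO cells. Clusters came from Seurat 5.3.0 (R 4.3.3; 2000 variable genes, integration, regression of cell cycle scores, 30 dimensions, resolution 0.8), without the members, the related lists, *Lyve1* and sex-linked genes, with macrophages and monocytes clustered again. A cluster was named from its marker list when at least 3 markers were in 25% of its cells and no other list led its 10 leading genes; this scoring was set after the data were seen. Cavity-like macrophages count as CCR2-. Unnamed clusters (936 WT and 663 KO cells, median depth 1367 and 1003 UMIs) entered no class. The linear algebra settings were fixed with 1 thread, since clusters depend on them.

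UMIs were summed per class and library and divided by all UMIs of the cells (CPM; Python 3.11.15, scipy 1.17.1). Intervals are exact 95% Poisson, binomial (Clopper-Pearson) and conditional binomial intervals, and a count of 0 allows up to 3 counts. Folds are ratios of CPM, given where both libraries had over 3 UMIs, and log2 ratios add 10 CPM. The 4900 UMIs used for thinning are the 10th percentile over the 4 classes. The members and lists, and the rule for the genes named (all members; listed genes past 2-fold with at least 100 UMIs or highest in WT in a class; the 3 most similar genes), were chosen with earlier results of these data known. Some values of listed genes are not reported here. Alternatives are given in the closing section.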

Additional observations from a re-analysis of the deposited data

Results flagged for a closer look

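For 7 genes the ratio between the libraries had opposite directions in 2 classes, each beyond its counting interval. The share of all genes that meet this rule was not counted, so the 7 cannot be set against other genes. With 1 library per genotype the difference was not tested, and each value is the difference of the 2 log2 ratios. *Mmp9* was higher in KO in CCR2- and lower in CCR2+ macrophage-like cells, with a difference of 2.11 that rests on 2 WT cells of the CCR2+ class. For *Mmp13* the CCR2+ ratio was above and the CCR2- ratio below 0, with a difference of 1.33, and 52 of the 61 KO UMIs of the CCR2+ class were in 1 cell. *Adam8* was higher in KO in CCR2- macrophage-like and lower in monocyte-like cells, 1.08 apart, but the CCR2- ratio was 0.56 in female against 2.60 in male cells and 1.14 with the KO clusters weighted as in WT. *Timp1* differed by 0.85 and *Mmp14* by 0.68 between CCR2+ macrophage-like cells, where they were higher, and CCR2- macrophage-like cells, where they were lower. With the WT weighting the CCR2- ratio of *Mmp14* was 1.04, and in CCR2+ cells *Timp1* was at 0.87 in female cells, with an interval that includes 1. *Adam17* was higher in CCR2- macrophage-like and lower in neutrophil-like cells, 0.60 apart, and *Mmp8* was higher in neutrophil-like and lower in monocyte-like cells, 0.59 apart. With that weighting the neutrophil-like ratios of *Adam17* and *Mmp8* were 0.92 and 1.01, and the monocyte-like ratios of *Mmp8* and *Adam8* were 0.85 and 0.58.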

How the results depend on the processing

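No paired analysis was possible because each genotype had 1 library. The direction of *Mmp12* in CCR2+ macrophage-like cells and its place past 2-fold held under all 15 alternatives, with log2 ratios from 1.502 to 2.54. *Mmp9* in the same cells passed 2-fold under 11 of 15. In female cells its log2 ratio was 0.23 on 4 and 7 UMIs, with an interval that covers both directions. The CCR2+ class was 1 cluster, so the WT weighting, and leaving out the cavity-like cluster or clusters of low depth, could not change its ratios. These alternatives are counted among the 15. The count of gene and class pairs past 2-fold, 2 of 30, was 1 without the cell and also without the 2 cells with the most UMIs, 3 in male cells only (*Mmp12*, *Mmp9* and *Timp1* in CCR2+ macrophage-like cells), and 4 in female cells only (*Mmp12*, *Mmp13* and *Mmp19* in CCR2+ and *Mmp9* in CCR2- macrophage-like cells). Of the female KO UMIs in CCR2+ cells, 1 and the same cell held 1031 of 1170 for *Mmp12*, 52 of 57 for *Mmp13* and 409 of 863 for *Mmp19*. Of the male KO UMIs of *Mmp12* in CCR2+ cells, 1 cell held 56.6%. With 1 CPM added, *Mmp13* in CCR2+ cells also passed 2-fold (log2 ratio 1.82). With thinned cells, *Mmp9* in CCR2+ cells (11.6 CPM in WT and 2.58 in KO) did not pass it, and *Timp1* (47.5 and 110 CPM) did. The median size of the log2 ratios, 0.31, was 0.15 with the KO clusters weighted as in WT. Of the 30 ratios, all 30 stayed within their counting intervals under stricter cell limits (1000 genes, 10% mitochondrial UMIs), under clustering resolution 1.2 and without clusters of low depth, 28 under median-ratio scaling, 29 with doublets kept, 27 when no variable gene was kept out of the clustering, 26 and 25 without the highest cell or 2 cells, 25 without the cavity-like cluster, 27 with the MHC class II cluster put in CCR2+, 22 with 1 CPM added, 20 with thinned cells and 20 with the WT weighting. In male and in female cells 13 and 8 did, with the other sign for 4 and 9, and the cause was not tested. Some alternatives could change only part of the 30 ratios. Without the cavity-like cluster only the 9 CCR2- ratios could change, and 5 left their interval. With the MHC class II cluster put in CCR2+ only the 10 CCR2+ ratios could change, and 3 left it. With the WT weighting 10 ratios left it, all outside the CCR2+ class. Leaving out clusters of low depth could change no CCR2+ or neutrophil-like ratio. Of 60 shares of cells with a UMI, 48 left their interval when cells were not thinned. Alternatives without 2 cells, without the cavity-like cluster or clusters of low depth, with the WT weighting and with the MHC class II cluster as CCR2+ were added after seeing the data. Spread between hearts could not be measured, and genes with under 20 UMIs in a class were not compared.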
